A study of Mus musculus with 16 samples.

Results

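The expression of 9 genes at 6 imprinted loci was followed through the clonal expansion of immortalised mouse embryonic fibroblasts (MEFs). The genes were Igf2r, Airn, Slc22a3, Grb10, Gnas, Nespas, Impact, Plagl1 and Zdbf2, matched by symbol among the 54453 genes of the deposited table. The lines came from E13.5 C57BL/6J littermates, a male embryo for MEF-1 and a female one for MEF-2, and were immortalised by passage through crisis. Total RNA depleted of ribosomal RNA was sequenced, with 1 library per line, from both parental lines and from 7 clonal lines of each, every one grown from a single sorted cell and numbered 1 to 7 below. The clonal lines of a set stand as its replicates, so that p-values measure the spread between clones of 1 embryo, and embryo, sex and history in culture cannot be told apart between MEF-1 and MEF-2. All lines carry the same inbred background and no treatment, and the RNA of the 2 alleles was not told apart.

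Imprinted genes are transcribed from only one parental allele, as set by DNA methylation laid down in the egg or sperm at an imprinting control region. The mark is copied at each cell division and is protected after fertilisation by KRAB zinc finger proteins such as ZFP57, which binds a methylated hexamer and recruits TRIM28. Igf2r and Grb10 are maternally expressed in most tissues, Airn, Nespas, Impact, Plagl1 and Zdbf2 are paternally expressed, and Gnas makes several transcripts of either or both alleles.

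The values are log2 values of the regularised log (rlog) transformation, in which a count is scaled to its library and each line is shrunken towards the average of the gene, so that differences are understated for genes with few reads. Levels of different genes are not compared, since the values are not per length. Col1a1, Col1a2, Col3a1, Fn1, Vim and Pdgfrb, which mark fibroblasts, were at 14.16 or more in every line, whereas Thy1 ranged from 2.72 to 10.22 and Lum from 5.51 to 11.88. Of the epithelial markers, Krt5 stayed below 0 in every line, Krt14 reached 0.65, Epcam lay between 2.40 and 4.45 and Cdh1 at 6.50 or more. Of the blood markers, Adgre1 stayed below 0, Ptprc lay between 1.56 and 2.94 and Cd68 between 4.33 and 5.58, and the endothelial markers Pecam1, Cdh5 and Kdr ran from 0.21 to 4.43. Myod1 and Myog of muscle and Sox10 of neural crest stayed below 0, whereas the neural markers Tubb3 and Map2 were at 9.48 or more, and the part of such cells in the results was not tested. As a reference for each gene, the median of the expressed genes of its chromosome, members left out, was taken in each line relative to the mean of the 14 clonal lines.

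The promoters differ in the number of CpG sites, at which the marks of imprinting are carried. RefSeq start sites on GRCm38.p6, the build of mm10, were given for 7 of the 9 genes, with 12 windows of 250 bases before a start, and none for Impact and Nespas. Igf2r (chr17:12769707-12769956, minus strand) and Airn (chr17:12741061-12741310, plus strand) are shown because they are an antisense pair, with 27 and 2 CpG sites in their windows. Grb10 (chr11:12037421-12037670, minus strand) is shown for its 40 CpG sites, a number reached by 1.31% of 32851 windows, whose median is 6. The other Grb10 window (chr11:12027972-12028221), not shown, had 8 CpG sites. Plagl1 (chr10:13090582-13090831, plus strand) and the far upstream start of Zdbf2 (chr1:63200108-63200357, plus strand) are shown because they hold TGCCGC, the hexamer read by ZFP57, which itself holds a CpG. Capitals mark every CpG, and all windows run 5′ to 3′ towards the start.
Igf2r: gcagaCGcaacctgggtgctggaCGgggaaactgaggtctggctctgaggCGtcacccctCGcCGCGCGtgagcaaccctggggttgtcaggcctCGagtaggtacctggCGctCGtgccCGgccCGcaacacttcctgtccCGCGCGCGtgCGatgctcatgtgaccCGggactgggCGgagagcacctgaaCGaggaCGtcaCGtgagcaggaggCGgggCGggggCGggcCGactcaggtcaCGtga
Airn: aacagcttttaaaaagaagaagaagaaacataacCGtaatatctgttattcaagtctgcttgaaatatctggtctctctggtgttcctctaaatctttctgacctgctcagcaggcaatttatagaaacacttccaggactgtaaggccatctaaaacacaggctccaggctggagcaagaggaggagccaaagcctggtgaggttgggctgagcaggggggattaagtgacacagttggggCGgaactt
Grb10: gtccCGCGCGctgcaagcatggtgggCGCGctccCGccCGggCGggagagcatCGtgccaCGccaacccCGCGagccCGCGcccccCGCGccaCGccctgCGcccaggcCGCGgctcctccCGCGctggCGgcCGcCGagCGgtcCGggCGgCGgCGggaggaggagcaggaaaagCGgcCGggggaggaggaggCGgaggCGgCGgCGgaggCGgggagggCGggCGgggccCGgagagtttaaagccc
Plagl1: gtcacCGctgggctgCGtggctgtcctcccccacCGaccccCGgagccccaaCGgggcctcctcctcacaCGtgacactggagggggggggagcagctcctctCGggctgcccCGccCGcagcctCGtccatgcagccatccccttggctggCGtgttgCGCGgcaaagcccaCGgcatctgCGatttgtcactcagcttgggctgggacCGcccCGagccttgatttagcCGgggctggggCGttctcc
Zdbf2: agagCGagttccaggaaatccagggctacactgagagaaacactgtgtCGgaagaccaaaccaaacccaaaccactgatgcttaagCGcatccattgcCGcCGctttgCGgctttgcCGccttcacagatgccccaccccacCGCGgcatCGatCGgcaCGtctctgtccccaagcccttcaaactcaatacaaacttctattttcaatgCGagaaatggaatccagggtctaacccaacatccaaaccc
The hexamer was found, on either strand, once in the Plagl1 window and 3 times in the Zdbf2 window, and in 8.68% of all windows. The other 10 windows of the members did not hold these letters. The Plagl1 window had 19 CpG sites, the upstream Zdbf2 window 13 and the Zdbf2 window at its main start 26.

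Of the 9 genes, 8 had an average above 0 and entered the fit, and Slc22a3 did not. Between the sets of clonal lines, Plagl1, Impact and Airn were lower and Zdbf2, Nespas and Grb10 higher in MEF-2 than in MEF-1 (limma, adjusted p under 0.05 over 21282 genes). This made 6 of 8 members, 3 in each direction, where 48.3% of all genes passed the same test, 22.6% as higher and 25.7% as lower in MEF-2. The median absolute difference was 0.42 for the members and 0.28 for all genes, and the median difference 0.17 and −0.02. After the chromosome median of each line was taken away, 7 of 8 passed, 4 as higher and 3 as lower, with 49.0% of 20595 autosomal genes (22.0% higher and 27.0% lower), and Gnas was the one added. The groups of 7 did not overlap for 1 member, Impact, and for 21.3% of all genes as deposited, and for Impact and 21.0% of all genes after the correction. In bulk RNA, fewer cells that express a gene and less RNA per cell cannot be told apart.

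**Figure D1:**
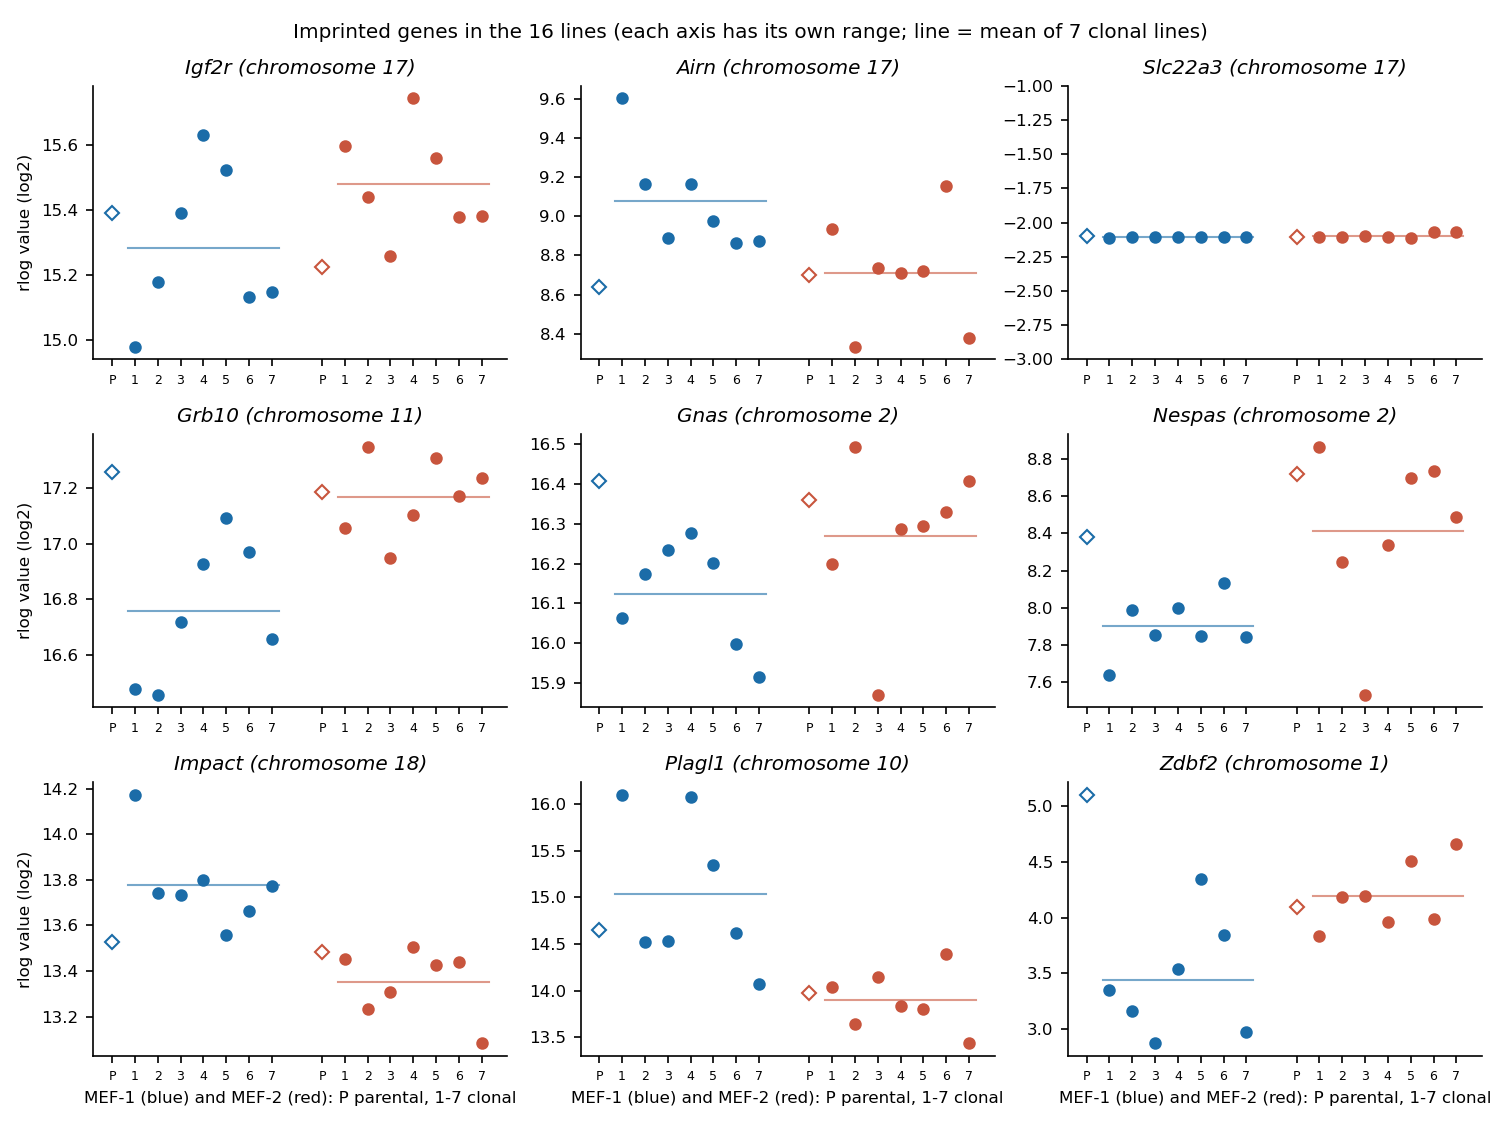
rlog values (log2) of the 9 genes in each line, with MEF-1 in blue and MEF-2 in red, open diamonds for parental lines, dots for clonal lines 1 to 7 and a bar at the mean of the 7, each panel with its own axis range. Impact is the gene whose clonal lines separate by set, Plagl1 is high in MEF-1 lines 1, 4 and 5, and Slc22a3 lies flat at about −2.1.

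Impact, an inhibitor of the amino acid sensing kinase GCN2, lies on chromosome 18 (12955852 to 12992950, plus strand). Its rlog values ran from 13.56 over a median of 13.74 to 14.17 in the MEF-1 clonal lines, and from 13.08 over 13.43 to 13.51 in MEF-2. The lowest MEF-1 clonal line, line 5, was thus above the highest MEF-2 clonal line, line 4. The mean was lower in MEF-2 by 0.43 on the log2 scale (−0.43, SE 0.09, n = 7 and 7, adjusted p = 0.00091), a level 1.34-fold higher in MEF-1. Both parental lines lay close together, at 13.53 for MEF-1, below all 7 of its clones, and at 13.48 for MEF-2.

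Chromosome 18 as a whole differed from Impact in the MEF-1 lines. Its median, over 366 genes, was at −0.50, −0.51 and −0.48 in lines 1, 4 and 5, and between 0.05 and 0.15 in lines 2, 3, 6 and 7. It was at −0.15 in the MEF-1 parental line and between 0.11 and 0.15 in all 8 MEF-2 lines. The mean of the clonal lines was 0.29 higher in MEF-2 (exact permutation test, adjusted over 6 chromosomes, p = 0.035). With lines centred on all autosomal genes it was 0.28 higher, which did not pass (same test, adjusted p = 0.087). The 3 MEF-1 lines were thus low over the chromosome, and the parental line lay between them and the other 4. Impact in these lines, relative to the median of the other 6 clones, was 0.44 higher in line 1, 0.06 higher in line 4 and −0.20 in line 5, where the 20 nearest expressed genes were at −0.50, −0.56 and −0.51. Impact thus did not follow its chromosome down in lines 1 and 4, and in line 5 its difference was smaller than that of the chromosome. From lower coverage in its bisulfite data, the paper proposes monosomy of chromosomes 18 and 12 in at least some MEF-1 lines. The part of copy number in the RNA values was not tested.

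With the chromosome taken away, the difference of Impact between the sets grew to −0.72 (SE 0.15, adjusted p = 0.0013), and the SD of the MEF-1 lines from 0.19 to 0.42. This step raised MEF-1 lines 1, 4 and 5, whose chromosome 18 was low, line 1 from 14.17 to 14.68. With the 20 nearest genes as reference the difference was −0.48 (exact permutation p = 0.0023), and the groups then overlapped. Lines 1, 4 and 5 were also left out together, a choice made after the data had been seen. The difference was then −0.38 as deposited and −0.41 with the chromosome taken away (limma, adjusted p = 0.0020 and 0.00078). Over the alternatives tried the difference stayed negative and passed in each. It lay between −0.36 and −0.46 as deposited and between −0.41 and −0.78 with a chromosome or nearby reference.

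**Figure D2:**
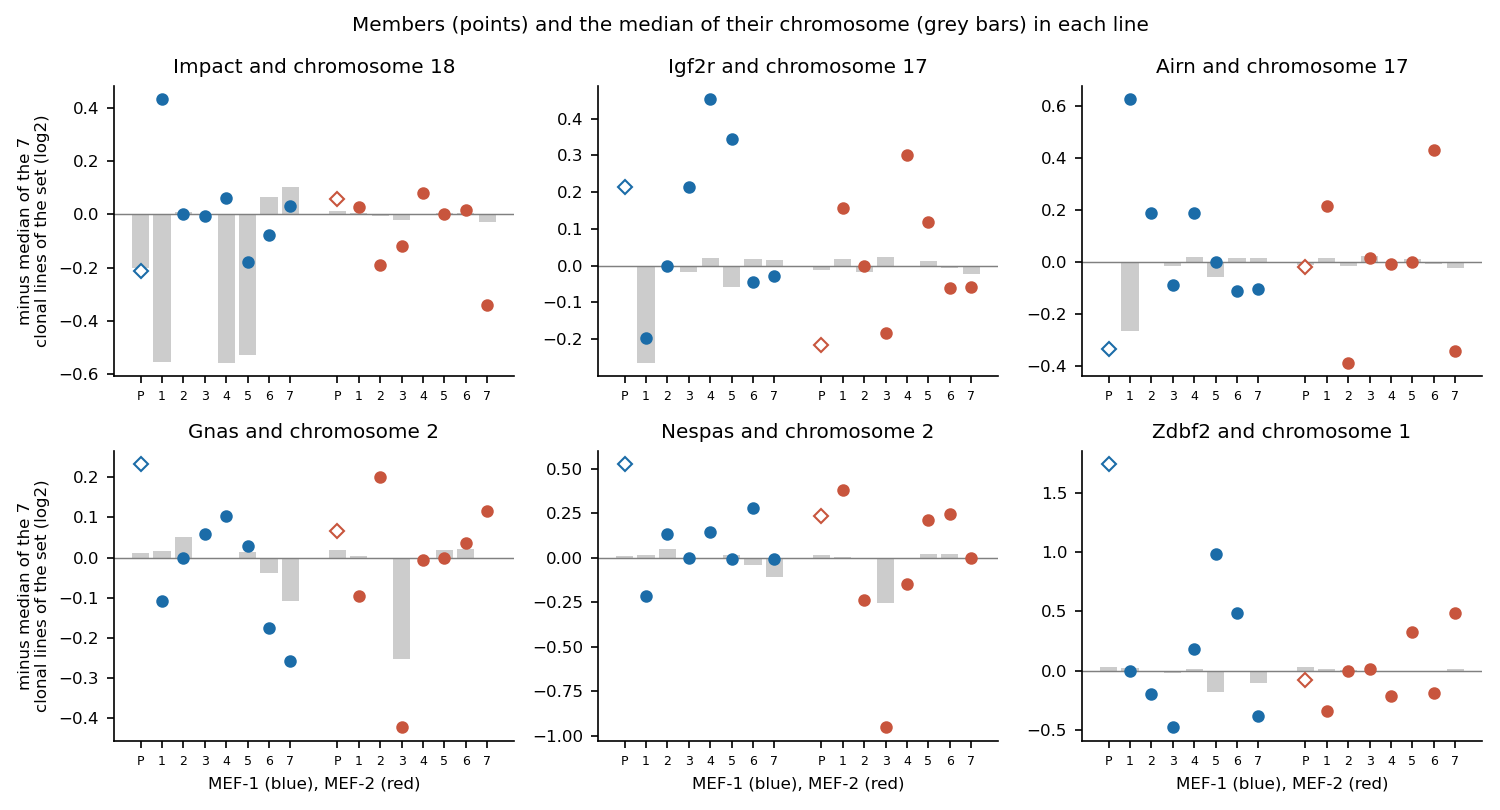
Deviation of a gene (points, blue MEF-1, red MEF-2, open diamonds parental) and of the median of its chromosome (grey bars) from the median of the 7 clonal lines of the set, in log2 units, for 6 genes with a shifted chromosome in at least 1 line. On chromosome 18 the bars of MEF-1 lines 1, 4 and 5 reach −0.55, −0.56 and −0.53, while Impact is at 0.43, 0.06 and −0.18 in these lines.

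Of the 8 protein-coding genes nearest to Impact, 6 were in the fit and 1 passed as deposited, beside 48.3% of all genes. This was Zfp521, a zinc finger regulator of progenitor cells (−0.95, SE 0.27, adjusted p = 0.0093). With the chromosome 18 median taken away, 3 of the 6 passed, beside 49.0% of all genes, namely Zfp521 (−1.24), the laminin gene Lama3 (−1.27, adjusted p = 0.039) and Osbpl1a, a lipid binding protein gene (−0.24, adjusted p = 0.018). Hrh4, the histamine receptor gene nearest to Impact, had an average of −2.10 and was not in the fit. Of 8 genes of the GCN2 pathway, 1 was higher in MEF-2, 2 were lower and 5 did not pass, beside 22.6% higher and 25.7% lower among all genes. Eif2s1, the eIF2α subunit that GCN2 phosphorylates, was higher by 1.06 (SE 0.09), and by 0.43 after correction for chromosome 12. Eif2ak4, which encodes GCN2 itself, was lower in MEF-2 (−0.30, SE 0.05) and so was Ddit3, a stress transcription factor (−0.54, SE 0.16). Atf4, the effector of the pathway, was at 14.45 in MEF-1 and 14.42 in MEF-2 (−0.03, SE 0.15), and its targets Asns, Trib3 and Chac1 did not pass either as deposited. With the chromosome taken away, Asns passed as higher in MEF-2 (0.47, adjusted p = 0.045), and Atf4, Trib3 and Chac1 did not pass.

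Plagl1, a zinc finger transcription factor that restrains the cell cycle and regulates other imprinted genes, lies on chromosome 10 (13060504 to 13131694, plus strand). In MEF-1 its clonal lines stood at 16.10, 14.52, 14.53, 16.07, 15.35, 14.62 and 14.07 in the order of their numbers, with the parental line at 14.65. Lines 1, 4 and 5 were high, and the other 4 lay below the parental line. In MEF-2 the clonal lines ran from 13.43 over a median of 13.83 to 14.39, with the parental line at 13.98. Line 7 of MEF-1 fell within the range of MEF-2, so the groups overlapped, and the mean was lower in MEF-2 (−1.14, SE 0.29, adjusted p = 0.0048), which makes 2.20-fold more in MEF-1.

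The 3 lines high for Plagl1 were also the 3 low for chromosome 18, and the part of one in the other was not tested. Left out together, a choice made after the data had been seen, they took the difference down to −0.54 (adjusted p = 0.020), and leaving out single lines kept the call. Chromosome 10 showed no such shift in them, with medians between −0.05 and −0.01, and Plagl1 relative to the median of the other 6 clones was 0.78 to 1.53 higher. The SD of 0.81 among MEF-1 lines compares with a median of 0.15 for the 4449 genes of the highest expression band, of which 0.584% varied more. In MEF-2 the SD of 0.32 was exceeded by 8.97% of them, beside a median of 0.12.

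**Figure D3:**
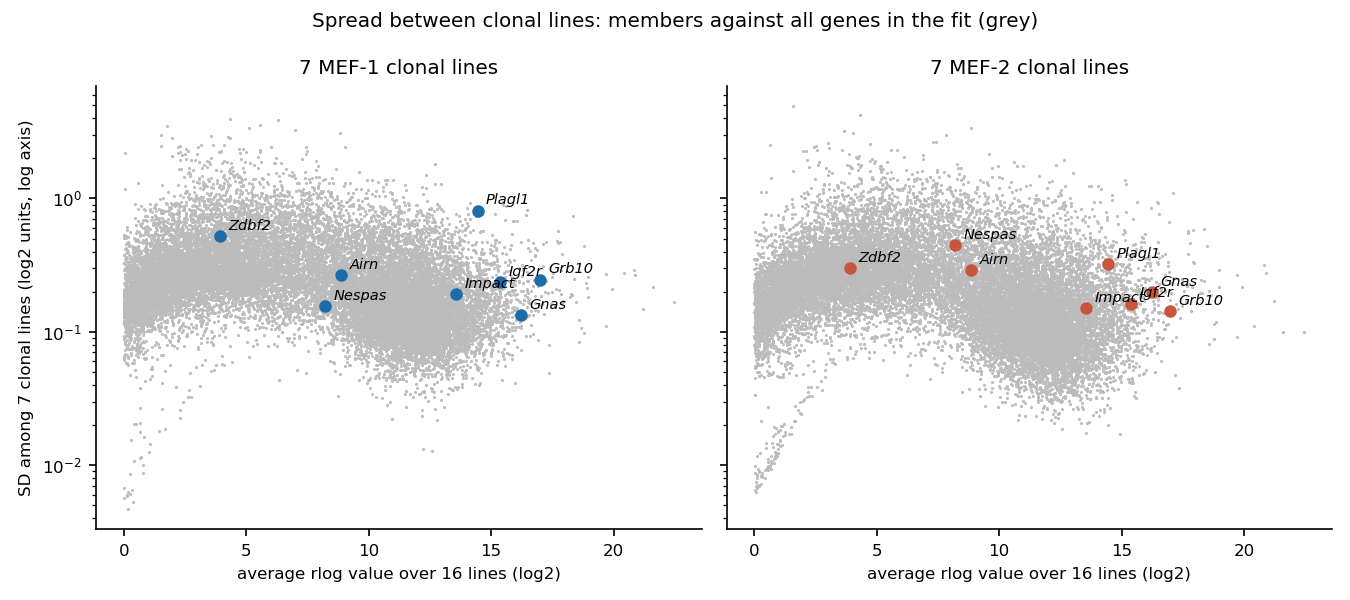
SD among the 7 clonal lines of a set (log2 units, logarithmic axis) against the average rlog value over 16 lines, for all genes in the fit (grey) and the members (coloured). Plagl1 stands at 0.81 in MEF-1, where 0.584% of the genes of its band varied more. Gnas (0.13) and Nespas (0.16) lie at or below the middle of their bands in MEF-1. In MEF-2 they lie above it, at 0.20 and 0.45.

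Around Plagl1, 7 of the 8 nearest genes were in the fit. Of these, 1 was higher and 3 lower in MEF-2, beside 22.6% and 25.7% of all genes. Phactr2, an actin and phosphatase regulator, was lower (−0.67, SE 0.14), and so were Fuca2, a fucosidase (−0.49, SE 0.17), and Epm2a, which encodes laforin (−0.63, SE 0.14), while Stx11 was higher (0.33, SE 0.10). The paralogue Plagl2 was lower in MEF-2 (−0.38, SE 0.08) and Plag1, the related oncogene, higher (0.52, SE 0.15). Within sets, genes were compared with Plagl1 over the 14 clonal lines, each set centred on its mean. The most alike were Slc30a5, a zinc transporter gene (Pearson r = 0.98), and Edar, a receptor of the TNF family on the same chromosome (r = 0.97). Both were picked as the highest values, with no chance level computed. They are given as a description of 14 libraries that share their origin.

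Zdbf2, a zinc finger gene of chromosome 1 (63273265 to 63314576, plus strand) expressed from the paternal allele, had an average of 3.91. Its values ran from 2.87 over a median of 3.35 to 4.34 in MEF-1 clones, and from 3.84 over 4.18 to 4.66 in MEF-2 clones. MEF-1 lines 5 and 6 reached into the MEF-2 range, at 4.34 and 3.84, and the other 5 lay below it. The difference was 0.75 (SE 0.22, adjusted p = 0.0098), or 1.68-fold. The MEF-1 parental line stood at 5.10, above all 7 of its clones (mean of the clones minus parental line −1.66), and with the parental lines included in their sets the difference of 0.53 no longer passed (adjusted p = 0.11). The MEF-2 parental line, at 4.10, lay within its clones.

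The neighbours of Zdbf2 differed between the sets in 5 of 6 cases, 2 higher and 3 lower in MEF-2, beside 48.3% of all genes called. Adam23, a cell adhesion gene next to it, was at 8.66 in MEF-1 and 3.85 in MEF-2, a difference of −4.82 (SE 0.24, adjusted p = 7.1e-10). Gpr1, whose locus is imprinted together with Zdbf2, was near the lower limit of the fit with an average of 0.29 and did not pass (0.45, SE 0.18, adjusted p = 0.054). The chromosome 1 median was low in MEF-1 lines 5 (−0.19) and 7 (−0.11), while Zdbf2 in these lines was 1.09 higher and −0.48 relative to the other 6 clones.

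**Figure D4:**
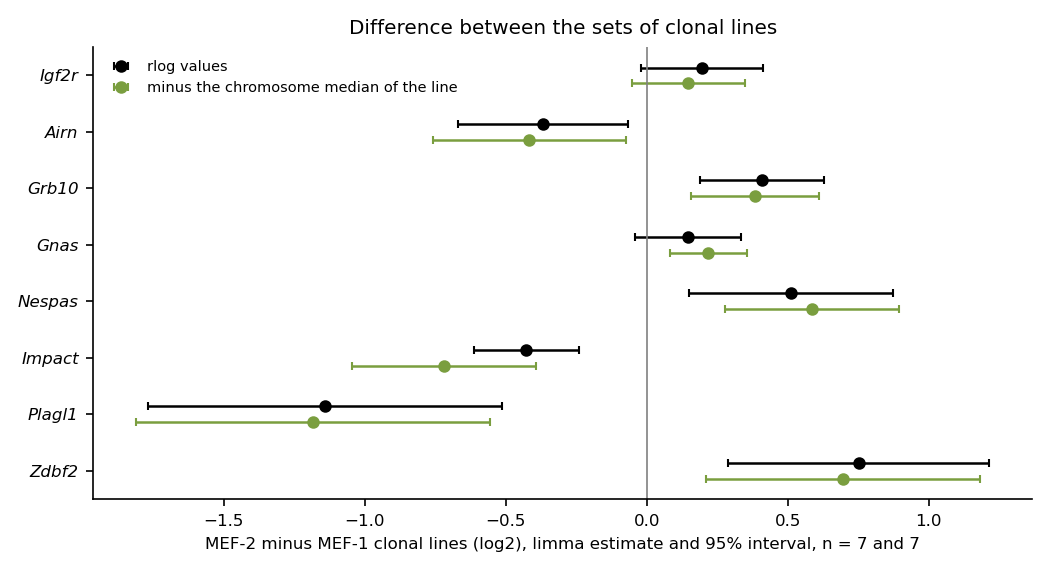
Difference of MEF-2 minus MEF-1 clonal lines (log2) with the 95% interval of limma, n = 7 and 7, for the 8 members in the fit, as deposited (black) and minus the median of the chromosome in each line (green). Intervals as deposited reach across 0 for Igf2r and Gnas, and the largest shift from black to green is that of Impact, from −0.43 to −0.72.

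Grb10, an adaptor that binds the insulin and IGF1 receptors and curbs their signal, lies on chromosome 11 (11930508 to 12038683, minus strand). Its values ran from 16.46 over a median of 16.72 to 17.09 in the MEF-1 clones, all below the parental line at 17.26. In MEF-2 they ran from 16.95 over 17.17 to 17.35, on both sides of the parental line at 17.19. MEF-1 lines 5 and 6, at 17.09 and 16.97, overlapped with MEF-2, and the mean was 0.41 higher in MEF-2 (SE 0.10, adjusted p = 0.0042), or 1.33-fold. The call held in each alternative, with differences between 0.35 and 0.47 as deposited and between 0.28 and 0.44 with a chromosome or nearby reference. Chromosome 11 was low in MEF-1 line 6 (−0.13), in which Grb10 was 0.28 above the other 6 clones and the 20 nearest genes 0.15 above.

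Igf2r, which binds IGF2 and delivers it to lysosomes and sorts mannose 6-phosphate proteins, lies on chromosome 17 (12682406 to 12769664, minus strand). Its values ran from 14.98 over a median of 15.18 to 15.63 in MEF-1 clones and from 15.26 over 15.44 to 15.74 in MEF-2 clones. The ranges overlapped widely and the difference of 0.20 did not pass (SE 0.10, 95% interval −0.02 to 0.41, adjusted p = 0.13). Without MEF-1 line 4, the highest of its set, it passed (0.25, adjusted p = 0.041). With the 20 nearest genes as reference it was 0.26 (exact permutation p = 0.036, not adjusted over genes). The parental lines stood at 15.39, within the MEF-1 clones, and at 15.23, below all 7 MEF-2 clones.

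Airn, the long antisense RNA that silences Igf2r on the paternal chromosome, starts within Igf2r and overlaps it by 28.4 kb on the other strand (chromosome 17, 12741311 to 12860136). It ran from 8.86 over a median of 8.98 to 9.60 in MEF-1 clones and from 8.33 over 8.72 to 9.15 in MEF-2 clones. Line 1 of MEF-1 stood out at 9.60, and lines 6 and 1 of MEF-2, at 9.15 and 8.93, lay within the MEF-1 range. The difference was −0.37 (SE 0.14, adjusted p = 0.043), and the call was lost in 11 of 23 alternatives on the values as deposited, with adjusted p up to 0.22. With the chromosome taken away it was lost in 12 of 24, among them the 20 nearest genes as reference (−0.31, exact permutation p = 0.078). As deposited, leaving out any one of MEF-1 lines 1, 2 and 4 or MEF-2 lines 2, 3, 4, 5 and 7 was enough, with adjusted p between 0.056 and 0.092. The parental lines were at 8.64 and 8.70, the former below all of its clones.

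In MEF-1 line 1 the genes of this locus parted. The median of chromosome 17 was at −0.26 in this line and between −0.05 and 0.03 in the other 13 clones, and Igf2r was the lowest of its set (−0.30 against the other 6), as were the 20 nearest genes (−0.22). Airn, in contrast, was the highest of its set there, 0.67 above the other 6. Over the 7 clones of a set, no relation of Igf2r and Airn passed, with r = −0.33 (exact permutation p = 0.50, Spearman rho = 0.14, p = 0.78) in MEF-1 and r = 0.08 (p = 0.85, rho = −0.21, p = 0.66) in MEF-2. Without the 2 lines farthest from the median of Igf2r, r was −0.68 and 0.21. In none of 8 relations tested among members of a locus did p pass after adjustment, the lowest being 0.70 for Pearson and 0.53 for Spearman.

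Slc22a3, an organic cation transporter gene that Airn silences in placenta, lies 174.7 kb from Igf2r (chromosome 17, 12418960 to 12507704, minus strand). In 14 lines its rlog value was between −2.11 and −2.10, at 0.175 to 0.179 above the value that each line gives to its lowest genes, a constant offset. In MEF-2 lines 6 and 7 it was at −2.07, 0.214 and 0.215 above that value. Without counts, the number of reads behind these values cannot be seen, and Slc22a3 was below the filter of the fit. Fitted without that filter, it did not pass (0.01, adjusted p = 0.26, and −0.04, adjusted p = 0.43, with the chromosome taken away). Its relations to Igf2r and Airn, 4 of the 8 tested, rest on these differences in the second decimal. Its relative Slc22a2, which lies between it and Igf2r, was low and lower in MEF-2 (1.44 and 0.86, −0.58, SE 0.12, adjusted p = 0.0011).

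Of 7 genes counted around Igf2r, 5 were in the fit. Of these, 1 was higher and 1 lower in MEF-2, beside 22.6% and 25.7% of all genes. Map3k4, a stress kinase gene, was higher (0.24, SE 0.07) and Mrgprh, a G protein-coupled receptor gene, lower (−0.27, SE 0.10). At Grb10, Fignl1, a DNA repair ATPase gene, was higher in MEF-2 (0.80, SE 0.15), Cobl, an actin nucleator gene, lower (−0.75, SE 0.19), and Ddc, imprinted in the heart, did not pass (0.26, SE 0.25).

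Genes of insulin and IGF signalling, in which Igf2r and Grb10 act, were lower in MEF-2 in 8 of 14 cases and higher in 2, beside 25.7% and 22.6% of all genes. This list was chosen with earlier results of these data known. Igf2, the ligand of Igf2r and itself imprinted, was at 13.32 ± 1.28 in MEF-1 and 8.03 ± 0.34 in MEF-2 (SD, n = 7 and 7), a difference of −5.29 (SE 0.45, adjusted p = 1.8e-07). The receptor genes Insr (−1.06, SE 0.09) and Igf1r (−0.30, SE 0.06) and the substrate Irs2 (−0.65, SE 0.17) were lower too. So were the binding proteins Igfbp3 (4.24 in MEF-1 and 2.03 in MEF-2, SE of the difference 0.33), Igfbp4 (−1.33, SE 0.30) and Igfbp5 (−1.34, SE 0.40), and Rptor of the mTOR complex (−0.29, SE 0.04). Grb14, a relative of Grb10, was higher in MEF-2 (0.81, SE 0.19), as was M6pr, the other mannose 6-phosphate receptor (0.20, SE 0.06). Igf1 did not pass (0.11, SE 0.48, limma adjusted p = 0.87), with SDs of 0.85 in MEF-1 and 1.15 in MEF-2.

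Gnas encodes the stimulatory G protein subunit Gsα, which couples receptors to adenylyl cyclase, and lies on chromosome 2 (174284320 to 174346744, plus strand). Its values ran from 15.91 over a median of 16.17 to 16.28 in MEF-1 clones, all below the parental line at 16.41. In MEF-2 they ran from 15.87 over 16.29 to 16.49, with the parental line at 16.36. The difference of 0.15 did not pass (SE 0.09, 95% interval −0.04 to 0.33, adjusted p = 0.19), and 1 line decided this. Without MEF-2 line 3, the lowest of all 14, it was 0.21 and passed (adjusted p = 0.022).

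Nespas, the antisense RNA of the locus, overlaps Gnas by 11.1 kb (chromosome 2, 174281237 to 174295436, minus strand). Its values ran from 7.64 over a median of 7.85 to 8.13 in MEF-1 clones, all below the parental line at 8.38, and from 7.53 over 8.49 to 8.87 in MEF-2 clones, with the parental line at 8.72. All MEF-2 clones but line 3 were above all MEF-1 clones, and line 3 was below them. The difference was 0.51 (SE 0.17, adjusted p = 0.021), or 1.43-fold, and 0.66 without line 3. The libraries kept strand, but how strand was used in counting is not given in the sources used here, and the reads that each overlapping pair could share were not tested.

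MEF-2 line 3 was low for chromosome 2 as well, with a median of −0.27 where the other 13 clones lay between −0.07 and 0.09. Relative to the other 6 clones, Gnas was at −0.44, Nespas at −1.06, the 20 nearest genes at −0.34 and the chromosome at −0.26. With the chromosome taken away, Gnas passed with 0.22 (SE 0.06, adjusted p = 0.010) and Nespas with 0.59 (SE 0.15, adjusted p = 0.0037), whereas with the 20 nearest genes as reference Gnas did not (0.15, exact permutation p = 0.098). Over the 7 clones Gnas and Nespas had r = 0.06 in MEF-1 (exact permutation p = 0.90, rho = 0.29, p = 0.56) and r = 0.59 in MEF-2 (p = 0.18, rho = 0, p = 1). Without the 2 lines farthest from the median of Gnas, r was 0.80 and −0.51, so that both values rest on those lines.

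**Figure D5:**
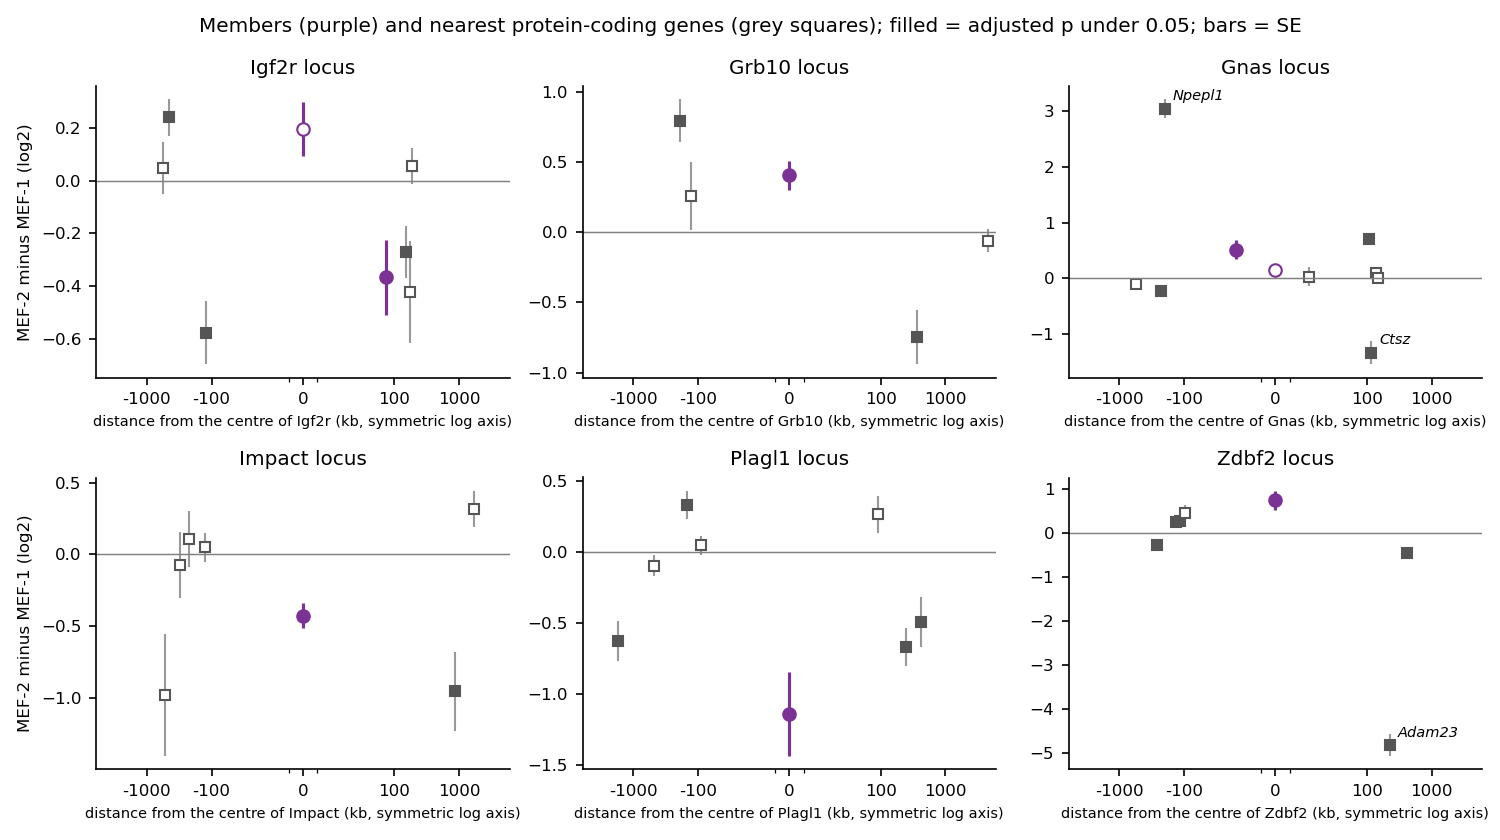
Difference of MEF-2 minus MEF-1 clonal lines (log2, bars are SE) of the members (purple) and the nearest protein-coding genes in the fit (grey squares), by distance in kb from the centre of the gene in the title on a symmetric log axis, filled where adjusted p was under 0.05. Adam23 near Zdbf2 (−4.82) and Npepl1 near Gnas (3.05) lie farthest from 0.

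Next to Gnas, 7 of 8 genes were in the fit, of which 2 were higher and 2 lower in MEF-2. Npepl1, an aminopeptidase gene, was at 6.01 in MEF-1 and 9.05 in MEF-2, a difference of 3.05 (SE 0.17, adjusted p = 1.7e-09). Nelfcd, of the complex that pauses RNA polymerase, was higher as well (0.71, SE 0.06), while Ctsz, a lysosomal protease gene, was lower (−1.34, SE 0.21). Over all 6 loci, 35 of 47 nearby genes counted were in the fit, and 7 were higher and 11 lower in MEF-2, with a median difference of 0.01. These 18 of 35 are a share near the 48.3% of all genes.

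Of 18 genes of Gs and cAMP signalling, 6 were higher in MEF-2, 6 lower and 6 did not pass, beside 22.6% higher and 25.7% lower among all genes. The adenylyl cyclase genes differed in both directions, with Adcy9 (−2.38, SE 0.15) and Adcy7 (−0.93, SE 0.25) lower and Adcy4 (0.92, SE 0.30) higher. Adcy3 was higher as deposited (0.26, SE 0.09) and lower once chromosome 12 was taken away (−0.38, adjusted p = 0.0029). Gnal, the Gsα relative of neurons on chromosome 18, was lower (−0.98, SE 0.27), and so were the protein kinase A genes Prkacb (−0.34, SE 0.05) and Prkar2a (−0.35, SE 0.08). The phosphodiesterases Pde4a (0.53, SE 0.10) and Pde4d (0.59, SE 0.16) were higher and Pde4b lower (−0.73, SE 0.24), and Creb1 did not pass (0.08, SE 0.05).

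The factors that maintain imprints were higher in MEF-2 in 6 of 8 cases (limma), beside 22.6% of all genes. The list was chosen with earlier results of these data known, so its share was not tested against that of all genes. Uhrf1, which brings DNMT1 to newly replicated DNA, was higher by 1.15 (SE 0.20, adjusted p = 0.00029) and Dnmt1, the maintenance methyltransferase, by 0.29 (SE 0.11, adjusted p = 0.034). Trim28 (0.55, SE 0.08), Smchd1 (0.27, SE 0.06), Ctcf (0.27, SE 0.04) and Zfp57 (0.24, SE 0.09) were higher too. Zfp445 (0.05, SE 0.05) and the histone methyltransferase gene Setdb1 (0.07, SE 0.05) did not pass as deposited. With the chromosome taken away, Zfp445 passed narrowly (0.11, adjusted p = 0.049) and Setdb1 did not. Dppa3, an oocyte factor, was not fitted, with an average of −2.28.

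The parental lines, at 1 library each, can be placed only against the range of their clones. The MEF-1 parental line was above all 7 clones for Grb10, Gnas, Nespas and Zdbf2, 4 of 8 members where 19.4% of all genes were above. It was below them for Airn and Impact, 2 of 8 with 18.9% of all genes, and within them for Igf2r and Plagl1. The MEF-2 parental line was below its clones for Igf2r, 1 of 8 with 16.6% of all genes, and within them for the other 7 members, where 15.9% of all genes were above. With the chromosome taken away, Impact in MEF-1 and Igf2r in MEF-2 lay within the range of the clones.

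Among the clones of a set, Plagl1 in MEF-1 aside, the SDs ran from 0.13 for Gnas to 0.52 for Zdbf2 in MEF-1 and from 0.14 for Grb10 to 0.45 for Nespas in MEF-2, and between 8.97% and 86.5% of the genes of the same expression band varied more. Nespas had an SD of 0.16 in MEF-1, smaller than that of 86.5% of the 6864 genes of its band. The genes most like the other members within sets were Tet3 for Igf2r (r = 0.88), Cst3 for Airn (0.94), U2af2 for Grb10 (0.94), Gm6863 and Gorasp2 for Gnas (0.94 and 0.93), Ctsa for Impact (0.92), 5430434F05Rik and Med22 for Nespas (0.89 and 0.87) and Taf10 for Zdbf2 (0.88). These correlations were picked as the highest over the genes compared. No chance level was computed for such a pick, so they serve as a description only. Gorasp2 and Med22 lie on chromosome 2 like Gnas and Nespas. The part of the MEF-2 line low over chromosome 2 in their correlations was not tested.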

How the data were processed

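The authors trimmed the reads with Trim Galore 0.6.0, quantified them with Salmon 1.5.2 against mm10 (Ensembl release 102) and made rlog values with DESeq2 1.24.0, per the labels' processing notes and the methods of the study. The deposited table holds 1 such log2 value per gene and line and no counts, so the depth of a library is unknown and its number of reads limits the precision of the low genes in a way that cannot be given. How transcripts were summed to genes, the strand setting and whether the transformation was blind are not given in the sources used here.

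Lines were grouped by their labels, and 0 names in the table were without a sample. Genes were matched to GENCODE mouse release 21 (Ensembl 96, mm10 coordinates). All genes with an average above 0 entered limma 3.58.1 (R 4.3.3) with a trended prior, 7 MEF-1 against 7 MEF-2 clonal lines, Benjamini-Hochberg over 21282 genes, adjusted p under 0.05 as a call. Medians per chromosome were taken over 13098 protein-coding genes whose average exceeded the 40th percentile, each line being centred so that its middle autosome is at 0, and the fit was repeated on 20595 autosomal genes minus that median. Single values were tested with exact two-sided permutation over lines (3432 splits). Expression bands are bounded by the 40th, 60th and 80th percentile of the average. The fits were tested on simulated data. Scripts ran under scipy 1.17.1, numpy 2.4.6, pandas 2.3.3 and matplotlib 3.10.9 in Python 3.11.15.

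Named are the 9 members, the 4 nearest protein-coding genes on each side of a locus, 5 lists (insulin and IGF, Gs and cAMP, GCN2, relatives of members, maintenance of imprints), marker genes and the 2 genes most like each member. From these, 2 genes are not reported here and enter no count of neighbours or lists. Members and lists were chosen with earlier results of these data known. Alternatives were the gene filter, variance prior, centring, reference, parental lines, replicate block and single lines left out. The bisulfite data of the study were not analysed here.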

Additional observations from a re-analysis of the deposited data

Results flagged for a closer look

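Among 18 sets of 7 clonal lines for the 9 genes and 12 for the 6 chromosome medians, a line stood farther from the next than Dixon's 95% limit in 6 cases, where chance flags about 1 in 20 sets, or 1.5 of 30. Airn in MEF-1 line 1 was at 9.60, with the next line at 9.16, and Impact in the same line at 14.17, with the next at 13.80. The median of chromosome 17 in MEF-1 line 1 was at −0.259, next −0.054, so that Airn was high and its chromosome low in 1 line. The median of chromosome 2 in MEF-2 line 3 was at −0.268, next −0.018, in the line in which Gnas and Nespas were lowest. The median of chromosome 10 in MEF-2 line 4 was at 0.109, next 0.005, and that of chromosome 11 in MEF-1 line 6 at −0.134, next −0.025. In MEF-2 line 4 Plagl1 was −0.09 relative to the other 6 clones.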

How the results depend on the processing

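Members called numbered 4 to 6 as deposited and 5 to 7 after the chromosome median was taken away, with 8573 to 10392 and 8316 to 12250 genes called. The lowest gene counts were out of 15285 and 14749 protein-coding genes, which hold 6 of the members. The highest were out of 21282 and 29569 genes, so the counts are not shares of the same number. Without single lines, 5 to 6 and 6 to 7 members and 9520 to 10392 and 9336 to 10177 genes were called, and the median SD of the members ran from 0.178 to 0.261 in MEF-1 and 0.203 to 0.265 in MEF-2. Each difference of the 8 members in the fit kept its direction, while that of Slc22a3, fitted only without the filter on low values, was 0.01 as deposited and −0.04 after correction. Over all alternatives for these 8, a call was lost 27 times, gained 5 times and kept as it was 356 times. In these counts an exact permutation p under 0.05, not adjusted over genes, stood as a call. Zdbf2 lost its call with the parental lines included after the chromosome correction too (0.48, adjusted p = 0.15), and Nespas as deposited with the 4 MEF-1 lines that were not low for chromosome 18 (0.46, adjusted p = 0.10). With these 4 lines Igf2r passed (0.27, adjusted p = 0.032) and Airn did not (−0.24, adjusted p = 0.22). The cause was not tested. In the main setting the difference of chromosome 1 was 0.057 and passed (exact permutation test, adjusted p = 0.036). That of chromosome 10 was 0.042 and passed (exact permutation test, adjusted p = 0.0070). With medians over all annotated genes, the difference of chromosome 1 was 0.034 and did not pass (exact permutation test, adjusted p = 0.19). That of chromosome 17 was 0.051 and passed (exact permutation test, adjusted p = 0.045). With centring on all autosomal genes, the differences of chromosomes 1 (0.048), 10 (0.033) and 18 (0.282) no longer passed. Their adjusted p in the exact permutation test was 0.29, 0.15 and 0.087. Referenced to the chromosome, the parental line was below its clones for 1 member in MEF-1 and 0 in MEF-2, and r turned to 0.017 for Igf2r and Airn and −0.034 for Gnas and Nespas in MEF-1. The relations of Slc22a3 were not recomputed relative to the chromosome. Clones with the same number did not deviate together, with correlations of −0.16 to 0.17 and 0 of 7 clones closest to their own number, so the pairing is one of number only. With the replicate block, 9787 genes and 6 members were called as deposited, and 9511 and 7 after correction.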
